A study of Homo sapiens with 15 samples.

Results

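The genes described here encode 10 transcription factors and early-response proteins that lie downstream of EGFR signalling: FOS, FOSL1 and FOSL2 of the FOS family, JUN, JUNB and JUND of the JUN family, the zinc finger factors EGR1 and EGR3, and the immediate early response genes IER2 and IER3. They were taken by symbol, with no threshold on measured values, though with earlier results of these data known, and make up 10 of the 61552 genes in the count table. Bulk polyA RNA of MDA-MB-468 cells, a basal-like human breast cancer line with many copies of EGFR, was sequenced in 15 libraries, 3 in each of 5 groups. In the drug experiment, cells were serum starved for 12 h and stimulated with 10 ng/mL EGF, and were then left without a drug (EGF) or treated for 12 h with 10 μM cSNX1.3, a peptide made to keep EGFR from its trafficking partner Sorting Nexin 1 (cSNX), or with 15 μM erlotinib, an inhibitor of the EGFR tyrosine kinase (ERL). In the line experiment, endogenous EGFR was knocked down with an IPTG-inducible lentiviral shRNA against the end of its transcript, and a plasmid encoding EGFR fused to GFP was introduced, either wildtype (shEGFR-WT) or with 3 basic residues of the nuclear localization sequence changed to aspartic acid (shEGFR-NLS). The line cells were also given EGF, whose dose and duration are not stated in the sources used here, nor is the promoter of the plasmid or whether a line is 1 clone. All groups of the drug experiment received EGF, so no unstimulated level was measured. No group received a control peptide, so cSNX1.3 is compared with EGF alone. Nothing in the labels says that replicates were separate cultures, so the p-values measure only the spread between these libraries, which may be technical.

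AP-1 is a dimer of a JUN protein with another JUN protein or with a FOS protein, and it binds DNA at short palindromic sites in the promoters and enhancers of growth, invasion and cytokine genes. Growth factors induce FOS, EGR1, EGR3, IER2 and JUNB within minutes through ERK, its ternary complex factor substrates and serum response factor, and these transcripts then decay quickly, whereas FOSL1 and FOSL2 are induced later and FOSL1 is held up by sustained ERK activity. The drug libraries were made after 12 h of treatment, so their values are late levels and not the first peak of induction, and for the line libraries the time after EGF is not stated.

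Library totals ran from 22915676 to 35900649 counts. Levels are given as CPM, the counts of a gene relative to library size after TMM scaling for depth and composition, and a change is called where the Benjamini-Hochberg adjusted p of the edgeR quasi-likelihood test is under 0.05. All replicate pairs differed beyond sampling noise (chi-square divided by its degrees of freedom, 2.69 to 24.5). EGFR itself lay between 4318 and 6502 CPM in the drug libraries and between 1147 and 1746 CPM in the line libraries, where the count also includes reads of the introduced coding sequence. In cSNX1.3 vs. EGF it differed by 0.38 on the log2 scale without being called (edgeR adjusted p = 0.0622). It was 0.37 higher on the log2 scale in shEGFR-NLS than in shEGFR-WT (edgeR adjusted p = 0.00367). The lines compared below thus differ in EGFR RNA as well as in the mutation, and the part of this difference in the shEGFR-NLS vs. shEGFR-WT values was not tested. EPCAM, KRT5, KRT6B, KRT14, KRT8 and KRT18 were present in every library, PGR had 0 counts, SMAD4 was at most 0.247 CPM, and ESR1 was at 2.79 to 8.42 CPM. Of the markers of other cells, PTPRC, CD3E and COL1A2 were at most 0.216 CPM, while COL1A1 ranged from 8.26 to 21.3 CPM and PECAM1 from 0.814 to 5.85 CPM. Library 2 was the lowest of its group for 9 of the 10 genes in EGF, for 8 in shEGFR-WT, for 8 in shEGFR-NLS and for 6 in ERL, and calls that change without 1 of these libraries are named with the result.

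EGR1 and FOS had the most similar profiles to each other over the 15 libraries, which is why their upstream sequences are shown. EGR1, ENSG00000120738, has 2 exons at chr5:138465479-138469303 on the plus strand of GRCh38, and FOS, ENSG00000170345, has 4 exons at chr14:75278826-75282230 on the plus strand. The lines below give the 250 bases before each RefSeq start (GRCh38.p14), at chr5:138465229-138465478 for EGR1 and chr14:75278578-75278827 for FOS, on the plus strand, 5′ to 3′. Capitals mark matches to the EGR site (GCGNGGGCG) and the CArG box, the element bound by serum response factor.
EGR1: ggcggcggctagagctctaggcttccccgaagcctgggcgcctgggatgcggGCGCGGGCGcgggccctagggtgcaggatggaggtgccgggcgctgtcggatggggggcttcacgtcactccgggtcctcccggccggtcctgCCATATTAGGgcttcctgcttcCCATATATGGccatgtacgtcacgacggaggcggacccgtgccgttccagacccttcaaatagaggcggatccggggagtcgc
FOS: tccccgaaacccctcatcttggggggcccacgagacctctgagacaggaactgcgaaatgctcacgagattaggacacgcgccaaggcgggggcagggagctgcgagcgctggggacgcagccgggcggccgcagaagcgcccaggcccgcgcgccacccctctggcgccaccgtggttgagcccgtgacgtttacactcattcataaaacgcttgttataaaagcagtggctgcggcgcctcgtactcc
In the EGR1 window the EGR site began 198 bases before the start, and the CArG boxes began 105 and 83 bases before it. The FOS window holds no match to these motifs, nor to the AP-1 site (TGANTCA) or the cAMP response element (TGACGTCA), and so has no capitals. Promoter sequence was matched for 7 of the 10 genes (FOS, FOSL2, JUN, JUNB, JUND, EGR1 and IER2), and windows from 250 bases before to 50 bases after the start were searched on both strands. A CArG box was found in 1 of 7, EGR1, against 1.29% of 35116 promoters of the same length, and an EGR site also in 1 of 7, EGR1, against 9.43%. An AP-1 site was found in 1 of 7, FOSL2, against 7.71% of promoters, and it began at base 5 after the start. A cAMP response element was found in 1 of 7, JUND, against 1.85%, and is shown in capitals in its minus-strand surroundings at chr19:18281800-18281837, where it began 200 bases before the start.
JUND: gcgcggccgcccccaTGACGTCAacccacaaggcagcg
Only exact matches to these letters inside the windows were searched, so variant sites and sites further from the start would be missed. The absence of a match is therefore not the absence of an element. A match is a description of the letters and was not tested as a binding site.

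In ERL vs. EGF, transcripts of most of these genes were lower under the kinase inhibitor. Of the 10, 8 fell and 1, FOSL2, rose, and JUND was not called. Among all 15738 genes tested, 44% were called in this comparison, 21.2% lower and 22.8% higher. The median log2 fold change of the 10 genes was -1.17, beside 0.01 for all genes tested. In bulk RNA, fewer cells expressing a gene and less RNA per cell cannot be told apart. FOSL1, EGR1 and FOS had the greatest falls, at 21.2-fold, 12.9-fold and 9.06-fold lower, and EGR3 followed at 4.60-fold lower.

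In cSNX1.3 vs. EGF, which shares its EGF libraries with the previous comparison, 3 of the 10 genes were called. FOSL1 rose 2.19-fold, and FOS and EGR1 fell 2.30-fold and 3.35-fold. Of all genes tested, 6.07% were called, 3.38% higher and 2.69% lower. The other 7 genes had log2 fold changes between -0.19 and 0.24.

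In shEGFR-NLS vs. shEGFR-WT, 7 of the 10 genes were called, and they went in both directions. FOSL1, IER3, JUND and JUN rose by 1.84-fold, 1.81-fold, 1.43-fold and 1.18-fold, and FOS, JUNB and FOSL2 fell by 1.52-fold, 1.34-fold and 1.17-fold. Of the 15805 genes tested in the line experiment, 41.4% were called, 20.4% higher and 21% lower. EGR1, EGR3 and IER2 were not called.

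**Figure D1:**
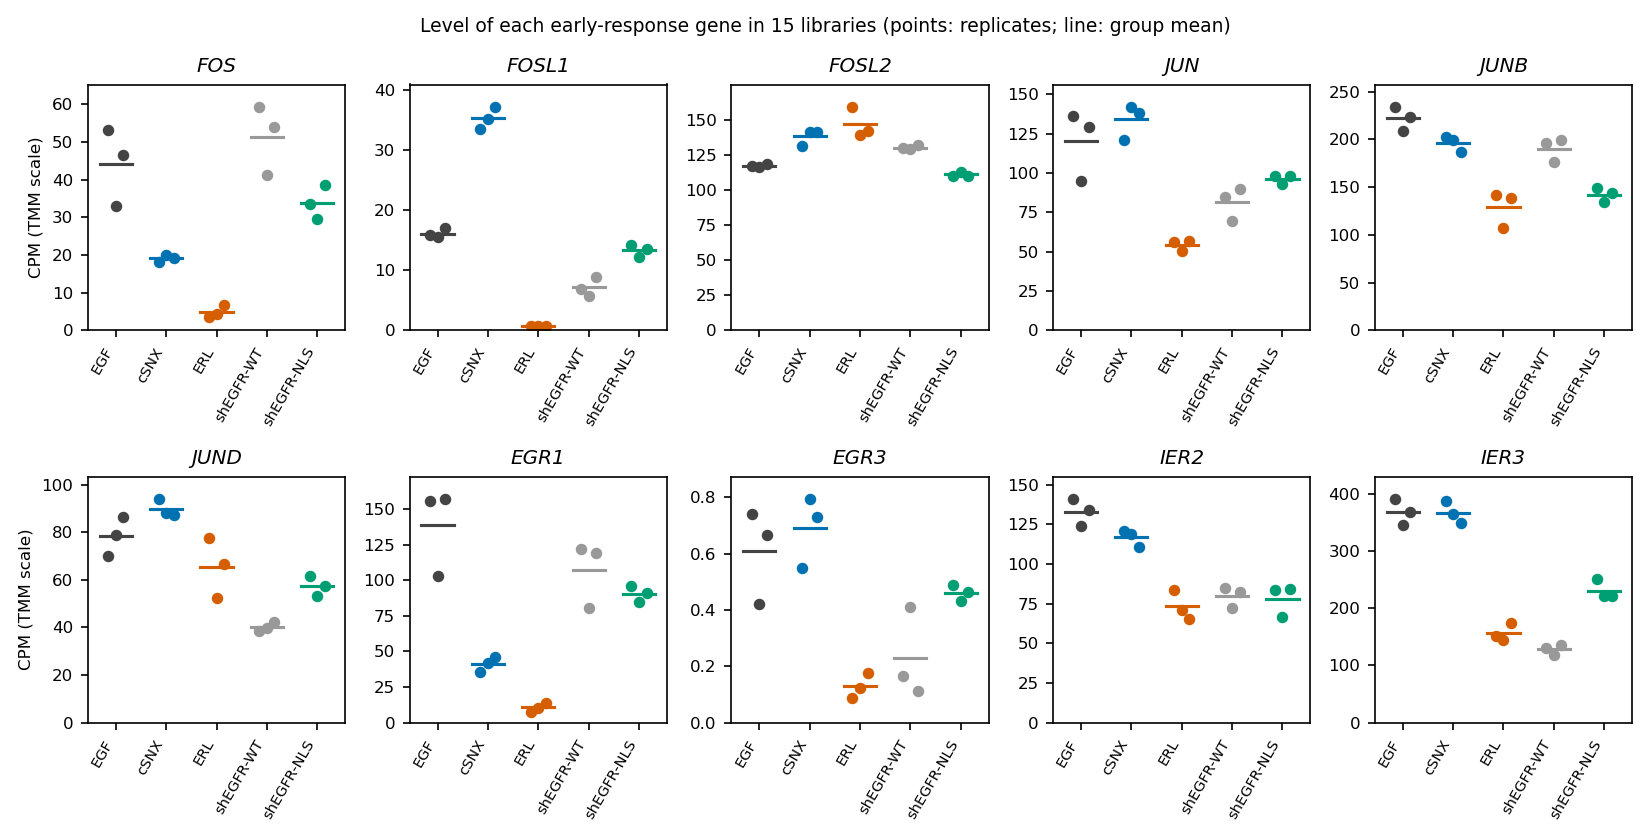
Level of each gene in CPM on the TMM scale (vertical axis, linear and from 0) in the 5 groups, with a point for each of the 3 replicates and a line at their mean. FOS, FOSL1 and EGR1 sit lowest in ERL, FOSL1 sits highest in cSNX, and FOSL2 stays between 110 and 159 CPM in every library.

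EGR1, a zinc finger factor that binds GC-rich promoters and is an early target of ERK and serum response factor, was measured at 156, 103 and 157 CPM in the EGF libraries. In the cSNX libraries it was at 35.5, 41.8 and 46.4 CPM, and in the ERL libraries at 7.53, 10.5 and 14.1 CPM. These 3 groups did not overlap. The log2 fold change was -3.69 (SE 0.24, edgeR adjusted p = 3.62e-07) in ERL vs. EGF and -1.75 (SE 0.22, edgeR adjusted p = 0.000567) in cSNX1.3 vs. EGF. Set directly against ERL, the cSNX level was 3.86-fold higher (edgeR adjusted p = 2.63e-05). In the line experiment EGR1 was at 122, 80.5 and 119 CPM in shEGFR-WT and at 96.2, 84.4 and 91.1 CPM in shEGFR-NLS. Those groups overlapped, and the log2 fold change of -0.24 (95% interval -0.52 to 0.03, edgeR adjusted p = 0.148) was not called. Without the second shEGFR-WT library the groups no longer overlapped and the value was -0.41 (edgeR adjusted p = 7.68e-05).

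EGR3, a related factor induced by the same route, was close to the limit of detection, with a mean of 0.609 CPM in EGF. Its raw counts were 18, 11 and 18 in EGF, 12, 19 and 20 in cSNX and 3, 3 and 5 in ERL. The ERL libraries lay below all EGF libraries, and the log2 fold change was -2.20 (SE 0.475, edgeR adjusted p = 0.00145). Summed over replicates, 47 counts in EGF against 11 in ERL gave a ratio of 4.77 after scaling, with an exact 95% binomial interval of 2.44 to 10.2 that covers counting error only. In shEGFR-WT the counts were 5, 13 and 4 and in shEGFR-NLS 17, 14 and 13. The groups did not overlap, but the log2 fold change of 1.02 (95% interval 0.04 to 2.01, edgeR adjusted p = 0.0901) was not called, and without the second shEGFR-WT library it was 1.74 (edgeR adjusted p = 0.0151). A long noncoding RNA on the opposite strand shares 164 exon bases with EGR3 and had 2 to 13 counts per library. Counting ignored strand, and how it treated reads in those shared bases was not tested.

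FOS, the prototype immediate early gene and the partner that gives AP-1 its strongest transactivation, was at 53.1, 32.9 and 46.5 CPM in EGF, at 18.2, 19.9 and 19.3 CPM in cSNX and at 3.62, 4.22 and 6.74 CPM in ERL. The 3 groups were fully separate, in the order EGF, cSNX, ERL. The log2 fold change was -3.18 (SE 0.22, edgeR adjusted p = 1.87e-07) in ERL vs. EGF and -1.20 (SE 0.20, edgeR adjusted p = 0.00255) in cSNX1.3 vs. EGF. With shEGFR-WT at 59.3, 41.1 and 53.9 CPM and shEGFR-NLS at 33.6, 29.5 and 38.7 CPM, every shEGFR-NLS library was below every shEGFR-WT library. That fall was of -0.60 on the log2 scale (SE 0.12, edgeR adjusted p = 0.00137).

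FOSL1, also called FRA-1, lacks the transactivation domain of FOS and is the FOS family protein most tied to invasive basal-like breast cancer. The gene, ENSG00000175592, lies at chr11:65892049-65900573 on the minus strand of GRCh38 and has 4 exons. It was at 15.8, 15.6 and 17.0 CPM in EGF, at 33.5, 35.1 and 37.2 CPM in cSNX and at 0.741, 0.737 and 0.776 CPM in ERL, the last from 25, 18 and 22 counts. The cSNX libraries were therefore above, and the ERL libraries below, all EGF libraries. The log2 fold change in ERL vs. EGF was -4.41 (SE 0.14, edgeR adjusted p = 6.04e-12), and its p-value ranked 3 among the genes tested. In cSNX1.3 vs. EGF it was 1.13 (SE 0.10, edgeR adjusted p = 5.02e-06), and between the drugs the cSNX level was 46.5-fold higher than the ERL level (edgeR adjusted p = 1.94e-13). In shEGFR-WT it was at 6.91, 5.70 and 8.96 CPM and in shEGFR-NLS at 14.2, 12.2 and 13.5 CPM, again without overlap, with a log2 fold change of 0.88 (SE 0.14, edgeR adjusted p = 8.61e-05). FOSL1 was thus called higher in both cSNX1.3 vs. EGF and shEGFR-NLS vs. shEGFR-WT, while FOS was called lower in both. Of all genes tested, 6.07% and 41.4% were called in these comparisons, 3.38% and 20.4% higher and 2.69% and 21% lower. The share of all genes called in the same direction in both was not counted. Nuclear EGFR was not measured in these libraries.

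FOSL2, or FRA-2, was the steadiest of the 10, with group means between 111 and 147 CPM, a 1.32-fold span. It was at 117, 116 and 118 CPM in EGF and at 159, 139 and 142 CPM in ERL, with all ERL libraries higher and a log2 fold change of 0.33 (SE 0.08, edgeR adjusted p = 0.00419). The cSNX libraries, at 131, 141 and 141 CPM, were also above all EGF libraries, but the log2 fold change of 0.24 had an edgeR adjusted p of 0.111. In the line experiment shEGFR-NLS, at 110, 113 and 110 CPM, was below shEGFR-WT, at 130, 129 and 132 CPM, by -0.23 on the log2 scale (SE 0.06, edgeR adjusted p = 0.00826). FOSL2-AS1, which overlaps the gene on the opposite strand but shares 0 exon bases with it, was at most 1.02 CPM. In ERL vs. EGF it was 3.22 higher on the log2 scale (edgeR adjusted p = 4.28e-05), from 2 to 3 counts per EGF library.

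Per length, in CPM per kb of exon, the FOS family summed to 39.2 in EGF, 44.3 in cSNX and 22.6 in ERL, and its makeup differed between the groups. In EGF, FOS held 35.0% ± 5.27 (SD, n = 3) of this sum, FOSL1 21.9% ± 1.76 and FOSL2 41.9% ± 3.68. In cSNX the FOS share was 13.6% ± 0.343 and the FOSL1 share 42.2% ± 0.842, each outside the range of the EGF libraries, while the FOSL2 shares overlapped at 43.5% ± 0.519. In ERL, FOSL2 held 90.4% ± 2.64, FOS 6.76% ± 2.35 and FOSL1 1.76% ± 0.104. In shEGFR-WT, FOS held 41.7% ± 4.0 and FOSL1 9.84% ± 1.66, and in shEGFR-NLS 31.7% ± 2.78 and 21.0% ± 1.1. The ranges of both shares were apart between the lines. FOSB, the remaining family member, held 0.671% to 1.15% of the sum on average. The shares are descriptions of RNA and were not tested.

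**Figure D2:**
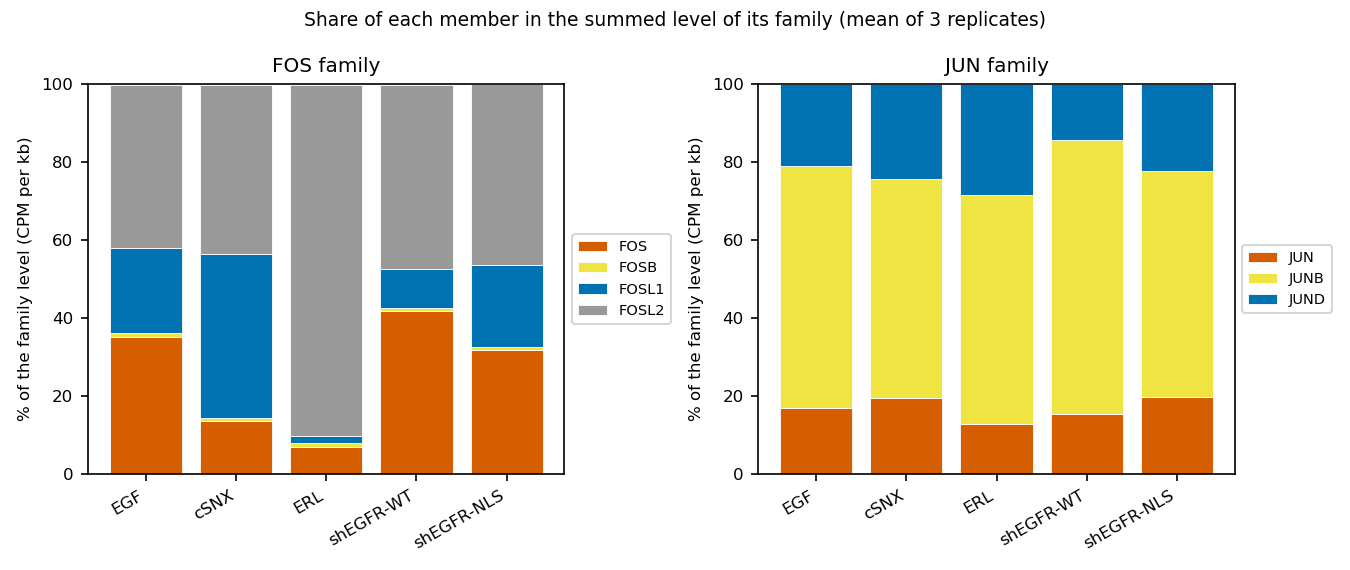
Share of each gene in the summed level of the FOS family (left) and JUN family (right), in percent of CPM per kb of exon, as the mean of 3 replicates in each of the 5 groups. FOSL2 takes 90.4% of the FOS family in ERL and FOSL1 takes 42.2% in cSNX, while JUNB holds the largest share of the JUN family in every group, 56.2% to 70.6%.

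JUN, the transactivating JUN protein that also drives its own promoter, was at 136, 94.7 and 129 CPM in EGF and at 56.1, 50.4 and 56.9 CPM in ERL. The groups did not overlap, and the log2 fold change was -1.13 (SE 0.125, edgeR adjusted p = 2.92e-06). In cSNX it was at 121, 142 and 138 CPM, which overlapped EGF (log2 fold change 0.16, 95% interval -0.10 to 0.42). In shEGFR-NLS, at 98.0, 93.1 and 98.1 CPM, it was above shEGFR-WT, at 84.5, 69.5 and 90.1 CPM, by 0.24 on the log2 scale (SE 0.08, edgeR adjusted p = 0.0287). That call was lost when any 1 shEGFR-NLS library or the second shEGFR-WT library was left out, with edgeR adjusted p-values of 0.0509 to 0.105.

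JUNB, a weaker activator that can oppose JUN, was the most abundant JUN transcript per length, with 121 CPM per kb in EGF against 40.6 for JUND and 33.1 for JUN. It was at 234, 209 and 223 CPM in EGF, 202, 199 and 187 CPM in cSNX and 142, 107 and 139 CPM in ERL, with no overlap between these groups. The fall in ERL vs. EGF was of -0.77 on the log2 scale (SE 0.105, edgeR adjusted p = 2.53e-05), and the cSNX value of -0.18 (95% interval -0.40 to 0.04) was not called. In shEGFR-NLS it was at 149, 134 and 144 CPM, below shEGFR-WT at 196, 176 and 199 CPM (log2 fold change -0.42, SE 0.07, edgeR adjusted p = 0.000201). HOOK2, on the opposite strand, shares 259 exon bases with JUNB and was at 47.4 to 104 CPM, and its level in the line experiment was higher in shEGFR-NLS (65.8 to 73.7 CPM) than in shEGFR-WT (47.4 to 53.6 CPM).

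JUND, the JUN protein that is expressed steadily and often restrains growth, was at 69.9, 78.8 and 86.3 CPM in EGF and at 77.6, 52.3 and 66.7 CPM in ERL. The groups overlapped, and the log2 fold change of -0.25 (95% interval -0.50 to 0.01, edgeR adjusted p = 0.108) was not called. Without the first ERL library it was -0.38 (edgeR adjusted p = 0.0182). In cSNX it was at 93.9, 87.9 and 87.3 CPM, above all EGF libraries, with a log2 fold change of 0.20 that was not called (95% interval -0.06 to 0.45). In the line experiment it was at 38.4, 39.6 and 42.3 CPM in shEGFR-WT and at 61.4, 53.4 and 57.4 CPM in shEGFR-NLS, a rise of 0.52 on the log2 scale without overlap (SE 0.08, edgeR adjusted p = 5.03e-05). Its share of the JUN family was 14.2% ± 0.952 (SD, n = 3) in shEGFR-WT and 22.2% ± 0.442 in shEGFR-NLS, while the JUNB share was 70.6% ± 0.684 and 58.0% ± 0.119.

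IER2, a nuclear early-response protein, was at 141, 124 and 134 CPM in EGF, 121, 119 and 111 CPM in cSNX and 83.7, 71.1 and 65.4 CPM in ERL. The 3 groups did not overlap, and the log2 fold change was -0.85 (SE 0.10, edgeR adjusted p = 5e-06) in ERL vs. EGF and -0.19 (95% interval -0.40 to 0.02, not called) in cSNX1.3 vs. EGF. In the lines it was at 84.8, 72.5 and 82.4 CPM in shEGFR-WT and 83.7, 66.8 and 84.1 CPM in shEGFR-NLS, which overlapped, with a log2 fold change of -0.03 (95% interval -0.22 to 0.16). Long noncoding RNAs on the opposite strand share 662 and 946 exon bases with IER2 and had 0 counts in every library. How counting without regard to strand treated reads in those bases was not tested.

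IER3, a stress-inducible protein that modulates ERK signalling and survival, lies at chr6:30743199-30744548 on the minus strand of GRCh38 and had the highest level per length of the 10, 272 CPM per kb in EGF. It was at 391, 345 and 368 CPM in EGF and at 387, 365 and 349 CPM in cSNX, which overlapped throughout, and the interval of the log2 fold change ran from -0.207 to 0.205. In ERL it was at 151, 145 and 175 CPM, a change of -1.22 on the log2 scale (SE 0.10, edgeR adjusted p = 1.02e-07) without overlap. In shEGFR-NLS it was at 251, 222 and 221 CPM, above shEGFR-WT at 131, 118 and 135 CPM by 0.85 on the log2 scale (SE 0.08, edgeR adjusted p = 1.7e-07). HCG20, a noncoding gene on the opposite strand that shares 85 exon bases with IER3, was also higher in shEGFR-NLS (1.05 to 1.15 CPM) than in shEGFR-WT (0.316 to 0.430 CPM), and IER3-AS1, which shares 440 exon bases, had at most 4 counts in any library.

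**Figure D3:**
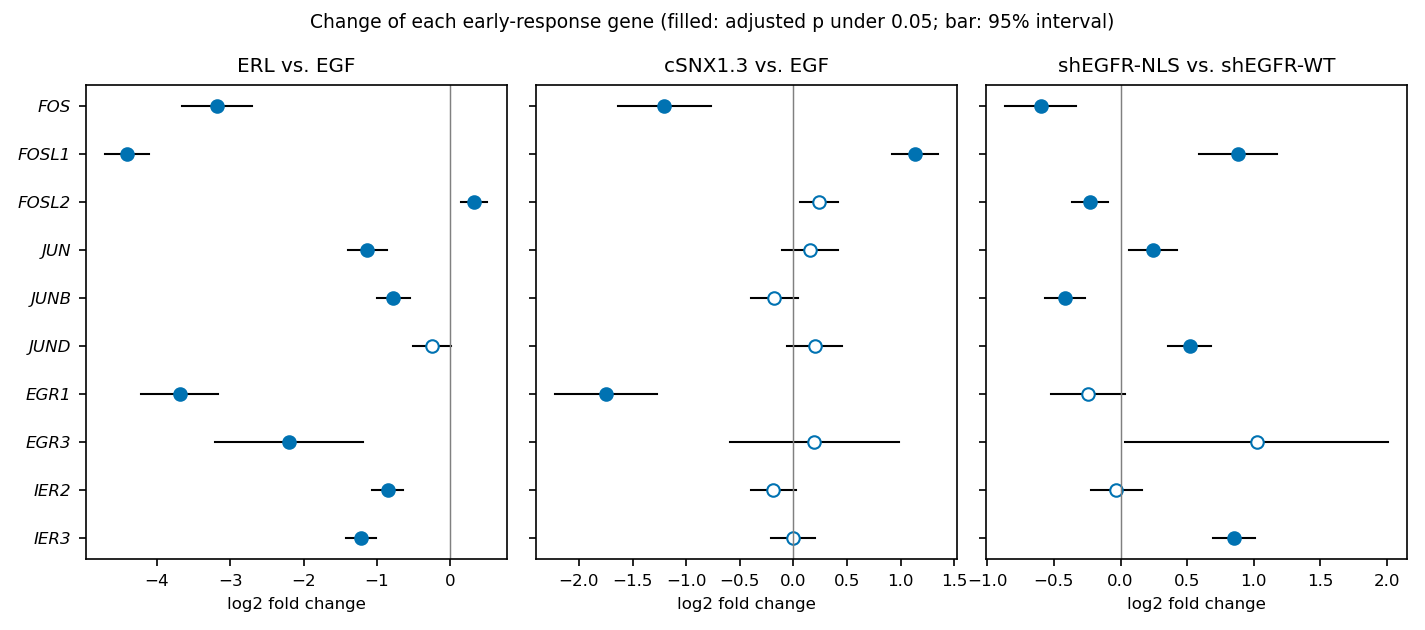
Log2 fold change of each gene with its 95% interval (horizontal axis, a different scale in each panel) in ERL vs. EGF, cSNX1.3 vs. EGF and shEGFR-NLS vs. shEGFR-WT, filled where the adjusted p is under 0.05. In ERL vs. EGF 8 filled points lie below 0, in cSNX1.3 vs. EGF the filled points are FOS, FOSL1 and EGR1, and in the lines filled points lie on both sides.

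The drugs were also set against each other directly. In cSNX1.3 vs. erlotinib, 9 of the 10 genes were called and each was higher with cSNX, where 56.1% of all genes tested were called and 27.6% were called higher. FOSL2 was the exception, with a log2 fold change of -0.10 (95% interval -0.27 to 0.08). FOSL1 differed most, by 5.54 on the log2 scale, followed by EGR3 at 2.40, FOS at 1.98 and EGR1 at 1.95.

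Whether the NLS mutation and each drug moved these genes differently was tested as an interaction over all 15 libraries. The signed log2 fold change in shEGFR-NLS vs. shEGFR-WT minus that in ERL vs. EGF was above 0 for 9 of the 10 genes and below 0 for FOSL2 (-0.55), and all 10 were called, where 44.7% of 16524 genes were called and 22.6% were called higher. A value above 0 includes genes that fell less in the lines than under erlotinib, such as FOS (-0.60 against -3.18) and JUNB (-0.42 against -0.77). The JUNB difference of 0.36 (edgeR adjusted p = 0.0316) lost its call without shEGFR-WT library 2 (0.31, edgeR adjusted p = 0.081) or ERL library 2 (0.24, edgeR adjusted p = 0.0965), and without any 1 of 4 other libraries. The shEGFR-NLS effect differed from the cSNX1.3 effect in 3 of the 10 genes, against 23.1% of all genes. EGR1 differed by 1.5 (SE 0.29, edgeR adjusted p = 0.00169), IER3 by 0.85 (SE 0.13, edgeR adjusted p = 2.78e-05) and FOSL2 by -0.47 (SE 0.10, edgeR adjusted p = 0.00152). For FOSL1 the difference was -0.25 (95% interval -0.61 to 0.11) and for FOS 0.60 (95% interval 0.02 to 1.18, edgeR adjusted p = 0.13). Without the second EGF library the FOS difference was 0.80 (edgeR adjusted p = 0.0204).

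Levels across the experiments were described and not tested, since parental and engineered cells differ in more than 1 way. FOSL1 was ordered cSNX, EGF, shEGFR-NLS, shEGFR-WT, ERL, from 35.3 to 0.751 CPM, and every neighbour in that order was apart. FOS ran from shEGFR-WT over EGF and shEGFR-NLS, whose ranges overlapped in turn, to cSNX and ERL, which were apart. EGR1 followed the order EGF, shEGFR-WT, shEGFR-NLS, cSNX, ERL, and the first 3 overlapped in turn. IER3 overlapped between EGF and cSNX, with means of 368 and 367 CPM, and was lower in shEGFR-NLS, ERL and shEGFR-WT in turn, each apart from the next. JUND was lowest in shEGFR-WT, with a mean of 40.1 CPM, and in the orders of FOSL2, JUN, JUNB, EGR3 and IER2 at least 1 pair of neighbours overlapped.

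Likeness of profiles was measured as the root mean square difference of log2 CPM, each gene centred on its mean, over 15 libraries and 13393 genes whose mean reached 1 CPM. EGR1 and FOS were each other's nearest gene, at 0.254, where their own deviations were 1.37 and 1.26. FOSL1 was nearest to SPRY4, an inhibitor of receptor tyrosine kinase signalling, at 0.523, then to ETV5, an ETS factor, at 0.555, and to SLCO2A1 at 0.573. FOS was next nearest to CCL22 and KCNK2, and EGR1 to KCNK2 and DOK7, at 0.510 to 0.688. IER2 was nearest to SRF, which encodes serum response factor, at 0.110, then to SLC16A13 and PCYT2, and JUND to CEBPB at 0.096, then to GRAMD1A and ARRB2. JUN lay nearest to NOLC1, POLG and NACC1, and JUNB to DBNL, KLHL36 and FAM98A. FOSL2 lay nearest to UBE2H, RNF216 and STAT5A, and IER3 to SRRT, SAPCD2 and ARTN. The distances of these genes were 0.079 to 0.185 and are not scaled to their own deviations. Those deviations were 0.475 for JUN, 0.315 for JUNB, 0.153 for FOSL2 and 0.627 for IER3.

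Genes around these factors were followed in lists that hold none of the 10. Of the AP-1 and EGR relatives, 7 of 15 tested fell and 5 rose in ERL vs. EGF, where 44% of all genes were called, and their median log2 fold change was -0.47. BATF3 and MAFF, basic leucine zipper proteins, fell by 1.85 and 1.67 on the log2 scale, and BATF rose by 0.76. EGR4 had 19, 28 and 21 counts in EGF and 0 in every ERL library, at least 8.28-fold lower against a floor of 3 counts per library. Under cSNX1.3, BATF3 and MAFF rose by 0.78 and 0.63, and no other relative was called, where 6.07% of all genes were called. In shEGFR-NLS vs. shEGFR-WT, 4 of 14 rose and 3 fell, beside 41.4% of all genes called, among them ATF3 (0.73), a stress-induced repressor, BATF (-1.04) and JDP2 (-0.24).

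Of 20 other early-response genes tested in ERL vs. EGF, 9 fell and 4 rose (median -0.28), beside 21.2% of all genes called lower and 22.8% higher. SGK1 and CCN2 fell by 1.95 and 1.57 on the log2 scale, and NR4A2 and GADD45B rose by 0.89 and 0.81. Of the same genes, 3 rose and 2 fell with cSNX1.3, beside 6.07% of all genes called, with KLF6 at 0.67, SGK1 at 0.62, CCN2 at -0.49 and PLK2 at -0.32. In shEGFR-NLS vs. shEGFR-WT, 7 of 19 fell and 3 rose, beside 41.4% of all genes called, with NR4A2 at -1.16, CCN1 at -0.67, TRIB1 at 0.90 and CCN2 at 0.63.

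Among the 15 upstream genes (serum response factor, its partners and the kinases), 5 fell and 2 rose in ERL vs. EGF, a share near the 44% called among all genes, with SRF at -0.86, ELK3 at -0.57, RPS6KA5 at 0.64 and CREB1 at 0.26. In the cSNX libraries 2 were higher than in EGF, beside 6.07% of all genes called, ELK3 by 0.48 and RPS6KA1 by 0.35. In the lines 4 fell and 1 rose, beside 41.4% of all genes called, with RPS6KA3 at -0.41, CREB1 at -0.38 and MAPK9 at 0.26. Of the 6 genes for proteins that bind AU-rich transcripts, most of which speed decay while ELAVL1 stabilises, 5 fell in ERL vs. EGF (median -0.62). ZFP36L2 was at -0.90 and ZFP36 at -0.64, beside 21.2% of all genes called lower. In the lines ZFP36L2 fell by 0.74 and KHSRP rose by 0.32, beside 41.4% of all genes called. In cSNX1.3 vs. EGF edgeR called 0 of the 6, with 0 at an unadjusted p under 0.05 and 0 by DESeq2. Of the 4 JUN turnover genes tested, only the deubiquitinase gene USP28 was called in ERL vs. EGF (0.33) and in the lines (0.26). It rose in both, beside 44% and 41.4% of all genes called. In cSNX1.3 vs. EGF edgeR called 0 of the JUN turnover genes, with 1 at an unadjusted p under 0.05 and 1 by DESeq2.

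Of 19 listed textbook AP-1 targets, 13 had enough counts to be tested in ERL vs. EGF. The rest, among them several matrix metalloproteinase genes, did not pass the filter. Of the 13 tested, 10 fell and 1 rose, where 44% of all genes tested were called. The median of the 13 was -1.21 on the log2 scale, beside 0.01 for all genes tested. CXCL8, a chemokine, fell by 4.0 and CCND1, the G1 cyclin, fell by 2.42, while PLAU, the urokinase gene, rose by 1.87. Of the targets, 3 of 13 rose and 1 fell with cSNX1.3, beside 6.07% of all genes called, with HBEGF, an EGFR ligand, at 0.92, CD44 at 0.73 and IVL at -0.48. In shEGFR-NLS vs. shEGFR-WT, 7 of 14 fell and 3 rose, beside 41.4% of all genes called, with IVL at -1.47, TIMP1 at -1.15, HBEGF at 1.07 and SPHK1 at 0.55. Heat shock genes, a measure of handling stress that can also induce FOS, fell in 3 of 8 cases in ERL vs. EGF. HSPH1 (-0.76) and HSP90AA1 (-0.75) fell most, and 21.2% of all genes were called lower. HSPA1A (-0.16), HSPA1B (-0.11), DNAJB1 (-0.23), HSPA8 (-0.27) and HSPB1 (0.01) were not called by edgeR. In the same comparison, 5 of the 8 were at an unadjusted p under 0.05 and 5 were called by DESeq2. HSPA8 and HSP90AA1 had the highest levels of the list, with means of 2195 and 1394 CPM in EGF. The summed level of all 8 was 4524 to 5411 CPM in EGF, 4801 to 5712 in cSNX and 3638 to 3799 in ERL. This sum thus moved with the ERL falls, and its part in them was not tested. It was 3547 to 3802 CPM in shEGFR-WT and 3498 to 3707 CPM in shEGFR-NLS, which overlapped, and edgeR called 0 of the 8 there, with 0 at an unadjusted p under 0.05 and 0 by DESeq2. In cSNX1.3 vs. EGF edgeR also called 0, with 3 at an unadjusted p under 0.05 and 0 by DESeq2.

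**Figure D4:**
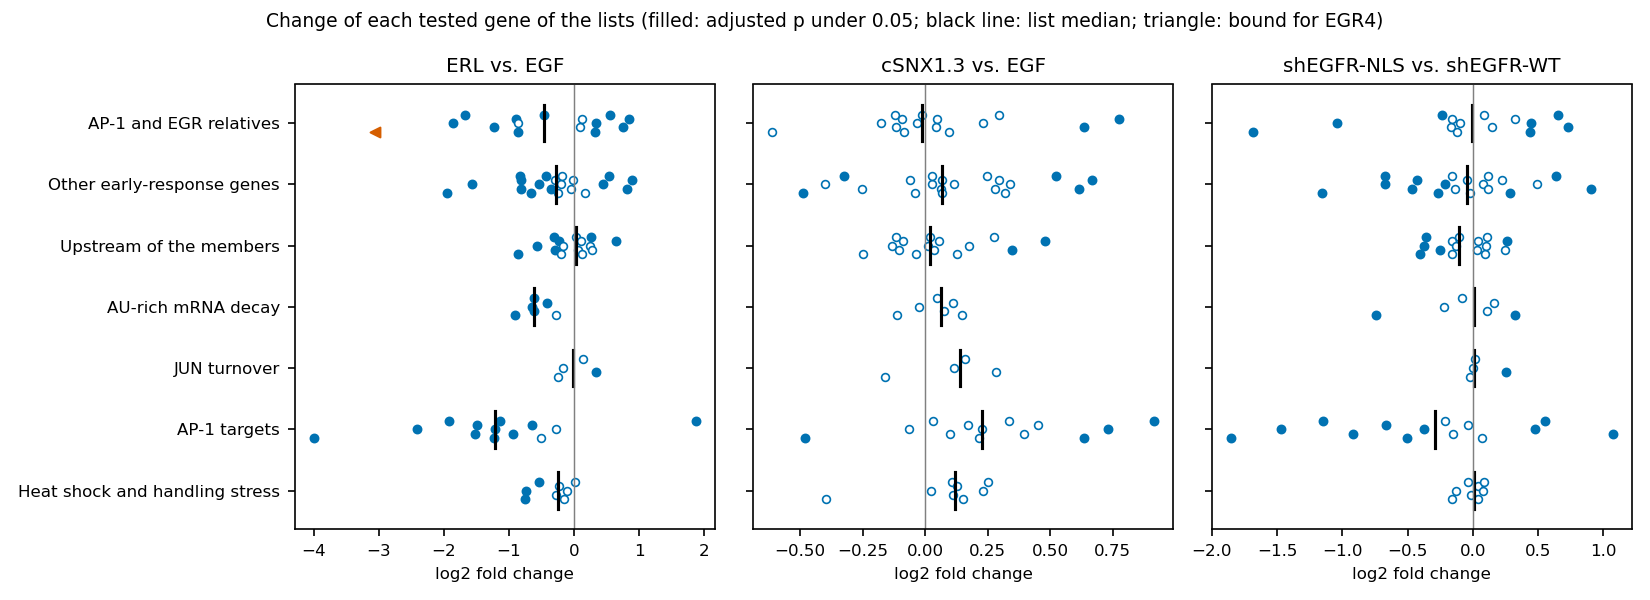
Log2 fold change of each tested gene (horizontal axis, a different scale in each panel) in 7 gene lists for ERL vs. EGF, cSNX1.3 vs. EGF and shEGFR-NLS vs. shEGFR-WT, filled where the adjusted p is under 0.05, with a black line at the list median and a triangle for EGR4 at its bound. The AP-1 targets and AU-rich decay genes lie mostly below 0 in ERL vs. EGF, with list medians of -1.21 and -0.62.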

How the data were processed

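RNA of 15 MDA-MB-468 libraries was analysed, 3 in each of 5 groups taken from the sample labels. According to the methods of the study, the authors trimmed read pairs with TrimGalore, aligned them to GRCh38 with STAR and assigned them to genes with featureCounts without regard to strand, and they deposited raw counts per gene. The annotation release is not given in the sources used here, and 61399 of 61552 gene IDs were matched to GENCODE 44, which also gave exon lengths. Tests were run with edgeR 4.0.16 under R 4.3.3 (TMM, filterByExpr by group, robust quasi-likelihood fit, Benjamini-Hochberg adjustment over all genes tested, threshold 0.05). The 9 drug libraries and the 6 line libraries were fitted apart, and interactions were fitted over all 15. All 10 genes passed the filter in every fit. The script was tested on simulated data.

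The genes, lists and tests were chosen with earlier results of these data known. Named are the 10 genes, EGFR, overlapping genes, up to 2 largest rises and falls per list of called genes averaging 1 CPM or more, and the 3 nearest profiles (prior count 2). FOSB was added to complete its family, and EGR4 was chosen after its values were seen. Alternatives were DESeq2 1.42.0 as test or for size factors, no filter, at least 10 counts in every library, other sets of libraries, the replicate number as a block, a threshold of 0.01 and leaving out each replicate. Promoters came from RefSeq. Some genes that meet the naming rule are not reported here.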

Additional observations from a re-analysis of the deposited data

Results flagged for a closer look

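Tested as an interaction over all 15 libraries with edgeR, the effect of the NLS mutation differed from that of cSNX1.3 in 3 of the 10 genes, with adjusted p-values of 2.78e-05 to 0.00169. For EGR1 the shEGFR-NLS effect minus the cSNX1.3 effect was 1.5 on the log2 scale, with the gene at -1.75 in cSNX1.3 vs. EGF and -0.24 in shEGFR-NLS vs. shEGFR-WT. For IER3 it was 0.85, with -0.001 under cSNX1.3 and 0.85 in the lines. For FOSL2 it was -0.47, with 0.24 under cSNX1.3 and -0.23 in the lines. The lines carry a knockdown and an introduced EGFR-GFP that the drug groups lack, so the treatment and the cell model cannot be told apart in these differences.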

How the results depend on the processing

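The number of the 10 genes called stayed within 1.5 times its reported value under every alternative run. It ranged over 8 to 10 in ERL vs. EGF, 3 to 4 in cSNX1.3 vs. EGF, 6 to 8 in shEGFR-NLS vs. shEGFR-WT, 8 to 9 in cSNX1.3 vs. erlotinib, 3 to 4 for the shEGFR-NLS effect minus the cSNX1.3 effect and 9 to 10 for the shEGFR-NLS effect minus the erlotinib effect. Of 904 values of single genes under alternatives, 883 kept their call, 13 lost it, 8 gained it and 0 called values changed sign. The uncalled values of IER3 and EGR3 in cSNX1.3 vs. EGF, IER2 in the lines and JUN in the interaction with cSNX1.3 changed sign in 6, 1, 2 and 2 alternatives. Without a filter on low counts, JUND in ERL vs. EGF (adjusted p = 0.0465, edgeR), EGR1 in the lines (0.00824) and FOS in the interaction with cSNX1.3 (0.0386) were called, and fitted over all 15 libraries FOSL2 in cSNX1.3 vs. EGF (0.0402) was called and JUN in the lines (0.105) was not. JUNB lost its call in the interaction with erlotinib when ERL library 2, EGF library 1 or 3, shEGFR-NLS library 1 or 3 or shEGFR-WT library 2 was left out (adjusted p 0.0588 to 0.0965, edgeR). At an adjusted p under 0.01, JUN in the lines and JUNB in the interaction with erlotinib were lost. With a replicate block the counts were 9, 3, 7, 9, 3 and 10, as without it. Same-numbered libraries had correlations of their deviations from group means between -0.208 and 0.249, and differently numbered libraries between -0.326 and 0.385. Deviations within a group of 3 are tied to each other, so these correlations cannot decide whether replicate numbers pair the libraries. EGR3 could not be tested under the minimum of 10 counts per library, and its counts of 3 to 20 limit what could be detected.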
